A study of Saccharomyces cerevisiae with 8 samples.

Results

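The comparison described here is the passage of the yeast strain called S from exponential growth to the time after the diauxic shift. Its members are the 4 libraries of S, 2 taken 12 h and 2 taken 6 h after incubation began, out of 8 libraries in the series. It was read across the 6339 rows, out of 7126 in the deposited table, that averaged at least 1 FPKM (fragments per kilobase of transcript, scaled to the size of the library) over the 8 libraries. All libraries are mRNA-seq of whole cells of Saccharomyces cerevisiae.

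Both times of S carry the same genotype, so only time in culture separates them. The S strain is JHY9200, made in the laboratory strain BY4741, and its label gives GCR1 (∆4-742). The other strain of the series, U, is JHY9100, with GCR1 (∆1-574) in the same background. The labels call them the Gcr1(S) and Gcr1(U) forms, after the processing of the intron of GCR1, and do not say from where the deleted positions are counted. Gcr1 is the transcriptional activator best known for driving the genes of glycolysis. U also has 2 libraries at 12 h and 2 at 6 h and its libraries enter the filter and the estimate of spread behind every call in S. Its own values are given only where they are set beside those of S. All cultures grew untreated in 10 mL of YPD with 2% glucose in 50 mL flasks, from an OD600 of 0.5, at 30 °C and 170 rpm. The labels do not say whether the replicates were separate cultures, so p-values measure the spread between these libraries, which may be technical.

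Given glucose, this yeast ferments it to ethanol even in air and keeps the genes for respiration and for other carbon sources repressed. When the glucose is gone, growth pauses at the diauxic shift, the repression lifts, and the cells go over to respiring the ethanol they made. To build sugars from ethanol they need the glyoxylate cycle and gluconeogenesis, which run carbon back up the path that glycolysis takes down. The ribosome is the main product of a fast-growing yeast cell, and its genes are known to be turned down when growth slows.

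The summed FPKM was 1527596 and 1504396 in the 12 h libraries of S, and 1511874 and 1548312 in its 6 h libraries. Read counts were not recoverable from the values, so the depth is unknown. FPKM is a share of each library, so a change in a few abundant genes shifts all others, and the amount of mRNA per cell and the mix of cells at different stages cannot be told apart from a change in every cell. BY4741 lacks LEU2, URA3 and MET17, and each was listed at 0 in all 4 S libraries. HIS3, which is mutated in that strain by a deletion within the gene, had 68.8 and 100.6 FPKM at 12 h and 137 and 231 FPKM at 6 h. BY4741 is of mating type a. STE2, the alpha-factor receptor of a cells, had 522 and 256 FPKM at 12 h and 1075 and 1037 FPKM at 6 h. STE3, the receptor of alpha cells, stayed at or under 8.22 FPKM. Of the pheromone genes of a cells, MFA1 had 543 and 0 FPKM at 12 h and 625 and 1038 FPKM at 6 h. MFA2 had between 893 and 1857 FPKM. Of those of alpha cells, MF(ALPHA)1 stayed at or under 5.49 FPKM and MF(ALPHA)2 had between 10.4 and 26.6 FPKM.

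The replicates of 6 h stand apart from each other, and did so in both strains. In S at 6 h, replicate 1 and replicate 2 differed by 2-fold or more in 752 genes (SD of the log2 difference across genes 0.77), against 210 genes (SD 0.52) between the 12 h replicates. Replicate 1 at 6 h had the higher value in 25 of 27 chaperone genes, with a median of 2.20 on the log2 scale, and the lower value in all 82 ribosome biogenesis genes tested, with a median of -0.85. HSP42, a small heat shock protein, had 1088 FPKM in replicate 1 and 19.0 FPKM in replicate 2. U at 6 h showed the same pattern: replicate 1 was 2-fold or more from replicate 2 in 484 genes, higher in chaperone genes (median 2.22) and lower in ribosome biogenesis genes (median -0.61), with HSP42 at 1163 and 39.9 FPKM. Across genes, the difference between replicates of 6 h in S correlated with that in U (r = 0.64 over 6339 rows, which are not independent). Results that rest on S 6 h replicate 1 are also given without it. With any library left out its group has 1, which is then assumed to vary like the other groups.

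Most rows of S differed between the 2 times. On the log2(FPKM + 1) scale used for every fold change here, which understates the change of low genes, limma (one moderated linear model over all 8 libraries, Benjamini-Hochberg adjusted p under 0.05 over all rows tested) called 3557 of 6339 rows, or 56.1%. Of these 2107 were higher at 12 h than at 6 h (33.2% of rows tested) and 1450 were lower (22.9%). Each count in a gene list below is to be read beside these shares. The 2 libraries of 12 h and the 2 of 6 h did not overlap in 5063 rows (79.9%). Called rows that changed at least 2-fold numbered 1372 higher and 973 lower, those at least 8-fold 249 and 163, and those at least 64-fold 40 and 5. The calls numbered 3665 on dropping S 6 h replicate 1, and 2317 on dropping S 12 h replicate 1, of which 1317 were higher (1333 without S 12 h replicate 2). The balance of directions depended on scaling. The median of all rows lay at 0.23 as deposited and at 0.02 after median-of-ratios scaling, under which 1696 rows were higher and 1781 lower, so a change near 0.2 has no firm sign.

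**Figure D1:**
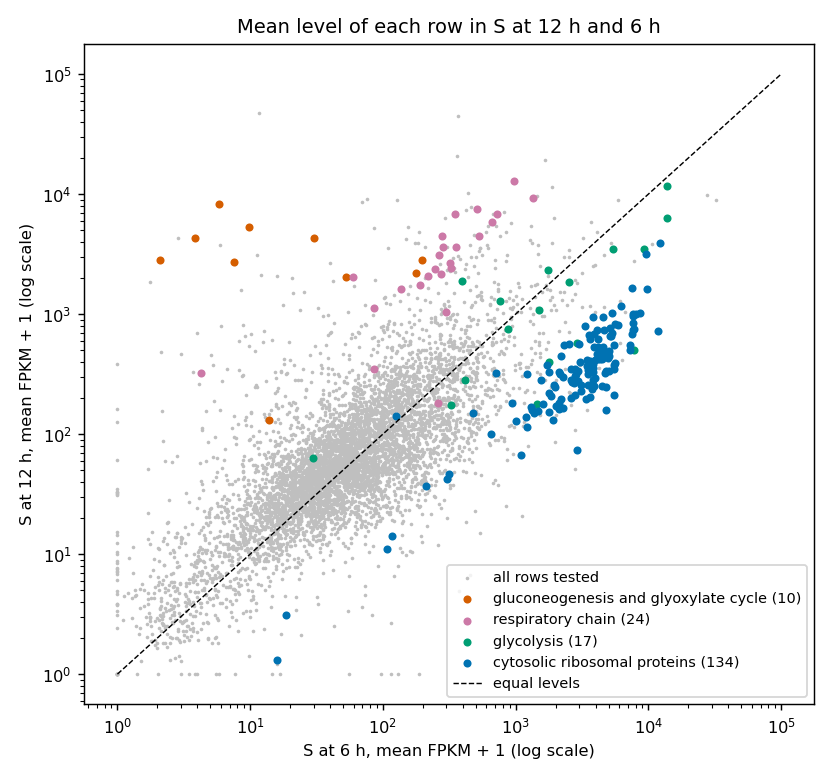
Mean FPKM + 1 of each row tested in S at 12 h (vertical axis) against S at 6 h (horizontal axis), both on log scales, n = 2 libraries each, with grey for all rows and colours for 4 gene lists. The 134 ribosomal protein genes lie below the diagonal of equal levels with 1 exception on it, and the 10 genes of gluconeogenesis and the glyoxylate cycle lie far above it.

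The largest rise was that of SIP18. This gene, which encodes a hydrophilin (a small hydrophilic protein known from drying and osmotic stress), had 53002 and 40771 FPKM in the 12 h libraries and 13.5 and 7.88 FPKM in the 6 h libraries. It was the most abundant row at 12 h, and its log2 difference of 12.00 (SE 0.31, limma adjusted p = 1.25e-05) was the highest of all rows called with at least 10 FPKM. After it came PCK1 (10.46), SFC1 (10.30), RGI2 (10.09), MLS1 (9.98), SPG4 (9.83), DDR2 (9.53), DPA10 (9.10), FBP1 (9.08), IDP2 (8.50), GRE1 (8.41), JEN1 (8.14), PUT4 (7.61), SPG1 (7.51) and YGR067C (7.43). DDR2 was listed at 0 in S 6 h replicate 2 and at 150 FPKM in replicate 1, so its difference has a wide SE of 2.04. DPA10 had 253 and 8401 FPKM in the 12 h libraries, against 0.82 and 2.91 FPKM at 6 h. Both of its 12 h values were higher, but they lay far apart.

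The largest fall with a value above 0 at 12 h was that of DBP2. This gene, an RNA helicase known from ribosome biogenesis, had 37.4 and 2.42 FPKM at 12 h and 462 and 1757 FPKM at 6 h. The 12 h and 6 h libraries did not overlap, which the rule for naming genes required, and the replicates differed widely at both times. Its log2 difference was -6.30 (SE 1.48, limma adjusted p = 0.0125). It did not pass when replicate 2 of either time was dropped (adjusted p = 0.065 each). INA1 (-6.24), SAM1 (-6.11), HXT3 (-5.69), IMD2 (-5.48), RPL9A (-5.29), UTR2 (-5.17), HXT4 (-5.04), RPS22A (-4.90), ASC1 (-4.70), RPS26B (-4.70) and BSC1 (-4.68) followed. UTR2 makes a chitin transglycosylase of the cell wall and ASC1 a core protein of the small ribosomal subunit; an intron of ASC1 holds the snoRNA gene SNR24, whose 89 bases overlap it. The rows YDR510C-A, SNR128 and PLS1 were listed at 0 in both 12 h libraries and between 50.4 and 196 FPKM at 6 h, and no fold is given for them.

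The 10 most abundant rows changed almost entirely. At 12 h they were SIP18, HSP12, HSP26, SPO24, QCR9, TDH3, ATP19, MRA1, CWP2 and POR1, and at 6 h CCW12, CWP2, TDH3, FBA1, RPS30B, RPS31, YDR524C-B, RPS26A, RPS30A and GPM1. Only 2 genes are in both: TDH3, the main glyceraldehyde-3-phosphate dehydrogenase, and CWP2, a cell wall mannoprotein. At 12 h small stress proteins, a subunit of respiratory complex III (QCR9), a subunit of the ATP synthase (ATP19) and the mitochondrial porin (POR1) had taken the places of glycolytic enzymes and ribosomal proteins. The 10 highest rows of 12 h held 14.1% and 11.9% of the summed FPKM in the 12 h libraries, and 3.25% and 3.07% in the 6 h libraries.

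**Figure D2:**
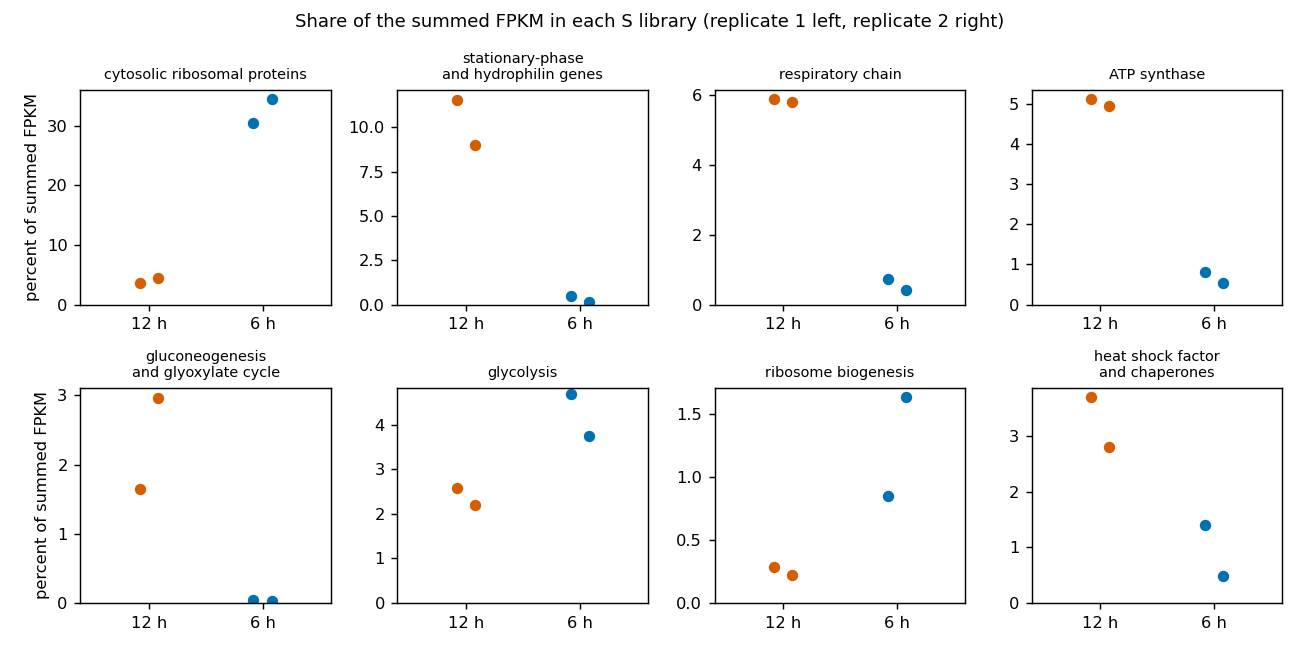
Percent of the summed FPKM of each S library held by 8 gene lists, 12 h libraries on the left and 6 h libraries on the right of each panel, 1 point a library. Ribosomal proteins held 3.61% and 4.52% at 12 h against 30.5% and 34.6% at 6 h, while stationary-phase, respiratory chain and ATP synthase genes each held under 1% at 6 h and between 4.95% and 11.6% at 12 h.

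All 10 genes of gluconeogenesis and the glyoxylate cycle rose, with a median log2 difference of 7.67 against 0.23 over all rows tested. PCK1, phosphoenolpyruvate carboxykinase, the first committed step from oxaloacetate towards sugar, had 6778 and 9762 FPKM at 12 h and 5.04 and 4.51 FPKM at 6 h (10.46, SE 0.24, limma adjusted p = 9.37e-06). FBP1, fructose-1,6-bisphosphatase, which undoes the phosphofructokinase step, had 5037 and 5576 FPKM at 12 h and 8.03 and 9.64 FPKM at 6 h (9.08, SE 0.25). MLS1, malate synthase, had 2385 and 6218 FPKM at 12 h and 2.58 and 3.07 FPKM at 6 h (9.98, SE 0.48). These genes were near the floor of the table at 6 h and among its upper ranks at 12 h. Their groups did not overlap, which the rule for naming them required. SFC1, the mitochondrial carrier that exchanges succinate for fumarate, rose by 10.30 (SE 0.39), and ICL1, isocitrate lyase, by 6.85 (SE 0.69). The list held 1.65% and 2.96% of the summed FPKM at 12 h and 0.037% and 0.027% at 6 h. Within 12 h, replicate 1 lay below replicate 2 in all 10 genes, by a median of 1.00 on the log2 scale, so the 12 h libraries differ in level although both are far above 6 h.

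The genes that take up and activate the ethanol, acetate and lactate left by fermentation rose in 11 of 16 cases, none fell, and their median was 3.61. JEN1, the lactate and pyruvate permease, had 3129 and 3095 FPKM at 12 h and 12.7 and 7.82 FPKM at 6 h (8.14, SE 0.25, limma adjusted p = 2.23e-05). ADY2, an acetate transporter, had 283 and 1290 FPKM at 12 h and 5.97 and 3.99 FPKM at 6 h (6.68, SE 0.93). ADH2, the alcohol dehydrogenase that oxidises ethanol, had 200.1 and 2043 FPKM at 12 h and 19.7 and 43.6 FPKM at 6 h. The 12 h libraries of ADH2 thus lay far apart, though above both 6 h libraries. Its difference of 4.40 (SE 1.30, limma adjusted p = 0.0283) did not pass without S 6 h replicate 1 (adjusted p = 0.0999), S 6 h replicate 2 (0.0618) or S 12 h replicate 2 (0.13), nor with no filter on low values (0.0613). ADH2 and ADH1 are 88.8% identical over their coding sequence, so reads may be shared between them. ACS1, the acetyl-CoA synthetase of non-fermentative growth, rose by 5.57 (SE 0.63), and ALD4, the mitochondrial aldehyde dehydrogenase, by 3.78 (SE 0.60). The carnitine shuttle, which moves acetyl units between compartments, rose in 5 of 5 genes with a median of 5.43, led by the mitochondrial carnitine carrier CRC1 (7.02, SE 0.78). For these 5 genes too 12 h replicate 1 lay below replicate 2 in every case, by a median of 1.29.

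Of 17 transcription factors known to drive genes of non-fermentable carbon use, 14 rose (9 without S 12 h replicate 1), none fell, and the median was 1.28. CAT8, the zinc cluster activator of gluconeogenic genes, had 65.5 and 47.1 FPKM at 12 h and 4.06 and 2.37 FPKM at 6 h (3.78, SE 0.36, limma adjusted p = 0.000455). SIP4, which binds the same promoter element and is itself a Cat8 target, had 85.2 and 227 FPKM at 12 h and 1.21 and 1.10 FPKM at 6 h (6.02, SE 0.51). ADR1, the activator of ADH2 and of peroxisomal genes, had 127 and 146 FPKM at 12 h and 16.7 and 7.02 FPKM at 6 h (3.52, SE 0.38). HAP4, the regulated subunit of the Hap complex that activates respiratory genes, had 1022 and 923 FPKM at 12 h and 229 and 109 FPKM at 6 h (2.61, SE 0.39). The groups did not overlap for any of these 4, as in 79.9% of all rows tested. GSM1 (3.40), RDS2 (1.41), PIP2 (1.28), HAP3 (1.16) and HAP2 (0.71) also rose. USV1 (2.37), HAP5 (1.59), OAF1 (0.64), RTG1 (0.49) and HAP1 (0.47) rose in all libraries together but not without S 12 h replicate 1 (adjusted p between 0.0504 and 0.162). Of these, all but HAP5 were also lost without S 12 h replicate 2 (0.0712 to 0.179), and OAF1, RTG1 and HAP1 also on dropping S 6 h replicate 2 (0.0862 to 0.182) and under both other scalings. ERT1 (0.39), RTG2 (0.23) and RTG3 (0.18) did not pass.

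Genes of respiration rose in nearly every case. In the TCA cycle 17 of 18 genes rose (median 3.56). The other TCA cycle gene fell (-1.62), a call lost with no filter on low values and in a fit to S alone. It was also lost without S 6 h replicate 2 or any single 12 h library of S or U. In the respiratory chain 22 of 24 rose (median 3.32) and in the ATP synthase 17 of 17 (median 2.88). SDH2, the iron-sulfur subunit of succinate dehydrogenase, had 4994 and 5623 FPKM at 12 h and 218 and 86.2 FPKM at 6 h (5.26, SE 0.45, limma adjusted p = 0.00034). CYC1, the main cytochrome c, had 3732 and 3542 FPKM at 12 h and 345 and 221 FPKM at 6 h (3.71, SE 0.26). NDE2, an external NADH dehydrogenase, had 230.1 and 409 FPKM at 12 h and 4.01 and 2.44 FPKM at 6 h (6.21, SE 0.38). The groups did not overlap for any of these, as in 79.9% of all rows tested. In the respiratory chain COX5B, the form of cytochrome oxidase subunit V known from low oxygen (-0.43), did not pass. Nor did CYC7, the minor cytochrome c, with 461 and 235 FPKM at 12 h and 159.5 and 9.64 FPKM at 6 h (adjusted p = 0.114, and 0.0158 without S 6 h replicate 1). Among ATP synthase genes the change ran up to 4.44 for STF1, a stabiliser of the inhibited enzyme. S 6 h replicate 1 was above replicate 2 in all 24 respiratory chain genes, by a median of 0.74, and without it 23 of 24 rose.

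Genes of mitochondrial translation changed less. Of 71 mitochondrial ribosomal protein genes 64 rose (42 without S 12 h replicate 1) and none fell, with a median of 0.88 beside the 0.23 of all rows and of 0.66 after median-of-ratios scaling. MRPL51 had 828 and 909 FPKM at 12 h and 274 and 215 FPKM at 6 h (1.84, SE 0.18, limma adjusted p = 0.000525); YPR099C overlaps it on the other strand, and the sources used here do not say whether counting used strand. Of 26 mitochondrial carriers 11 rose and 8 fell (4 on dropping S 12 h replicate 1 and 5 on dropping S 12 h replicate 2), and the direction differed between carriers of like substrates. Beside these counts, 33.2% of all rows rose and 22.9% fell. Among the ADP/ATP carriers, PET9 rose by 2.54 (SE 0.16) and AAC1 by 4.13 (SE 0.19), while AAC3, the form known from anaerobic growth, fell by 3.56 (SE 0.37). Of the oxodicarboxylate carriers ODC1 had 790 and 1159 FPKM at 12 h and 36.6 and 38.9 FPKM at 6 h (4.63, SE 0.26) and ODC2 fell by 2.09, though not without S 6 h replicate 2 (adjusted p = 0.107) or either S 12 h library (0.0876 and 0.0992), nor with no filter on low values (0.0521). Of the subunits of the mitochondrial pyruvate carrier, MPC3 rose by 6.06 (SE 0.20) and MPC2 fell by 1.24 (SE 0.25).

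**Figure D3:**
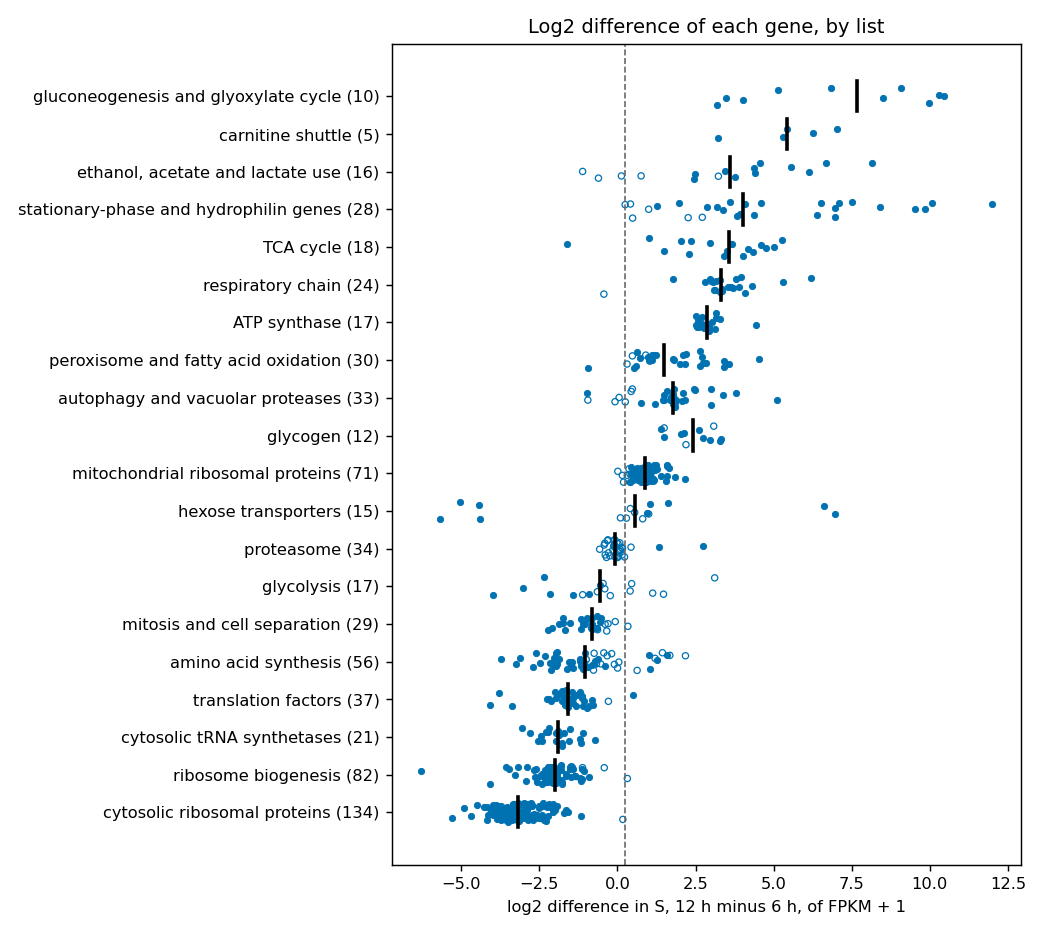
Log2 difference, 12 h minus 6 h in S, of each gene tested in 20 lists (1 point a gene; filled points passed limma at adjusted p under 0.05, open points did not), with a bar at each list's median and a dashed line at the median of all rows, 0.23. Gluconeogenesis, respiration and stationary-phase genes lie to the right and ribosomal proteins and ribosome biogenesis to the left, with most proteasome genes at the dashed line or just left of it.

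Of 15 hexose transporters tested 5 rose (3 with quantile normalization, and 3 on dropping S 6 h replicate 2 or S 12 h replicate 1) and 4 fell, where 33.2% and 22.9% of all rows did, and the most abundant one differed between the times. HXT3 and HXT1, low-affinity carriers of cells in ample glucose, and HXT2 and HXT4, carriers of moderate or high affinity, fell. HXT3 had 53.9 and 47.2 FPKM at 12 h and 1940 and 3620 FPKM at 6 h (-5.69, SE 0.39, limma adjusted p = 0.000169), and HXT1 10.6 and 11.4 FPKM at 12 h and 228 and 293 FPKM at 6 h (-4.44, SE 0.18). HXT4 fell by 5.04 (SE 0.40) and HXT2 by 4.40 (SE 0.53). HXT5, a transporter known from slow growth, had 1835 and 2165 FPKM at 12 h and 18.6 and 20.5 FPKM at 6 h (6.60, SE 0.15, adjusted p = 9.37e-06). So at 6 h HXT3 was the most abundant of the family and at 12 h HXT5. HXT6 and HXT7, high-affinity carriers, are 99.8% identical over their coding sequence, and the division of reads between them is uncertain. Their sum was 604 and 383 FPKM at 12 h and 115 and 11.6 FPKM at 6 h. HXT15 (1.61), HXT8 (0.93) and HXT11 (1.06) rose at levels under 15 FPKM. The last 2 were not called without S 6 h replicate 2 (adjusted p = 0.118 and 0.0686), S 12 h replicate 1 (0.121 and 0.0868) or after quantile normalization (0.283 and 0.212), and HXT8 also without S 12 h replicate 2 (0.0763). HXT7, HXT9, HXT12, HXT13, HXT17 and GAL2 did not pass.

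Of 30 genes of glucose sensing and repression 14 rose and 3 fell, where 33.2% and 22.9% of all rows did. On dropping S 6 h replicate 2 or S 12 h replicate 1 there were 8 that rose, and on dropping S 12 h replicate 2 there were 7. With median-of-ratios scaling 8 fell, as did 1781 of all 6339 rows. SNF3, the high-affinity glucose sensor, had 95.7 and 67.8 FPKM at 12 h and 17.0 and 14.1 FPKM at 6 h (2.31, SE 0.24, limma adjusted p = 0.000606), and RGT2, the low-affinity sensor, rose by 0.72 (SE 0.17), though not without S 12 h replicate 2 (adjusted p = 0.078), S 6 h replicate 2 (0.0503) or after quantile normalization (0.111). The paralogous regulators under them changed in opposite directions: MTH1, a corepressor of HXT genes, rose by 1.17 (SE 0.22), and STD1 fell by 2.85 (SE 0.25). REG2, a regulatory subunit of the Glc7 phosphatase, had 706 and 746 FPKM at 12 h and 10.0 and 13.2 FPKM at 6 h, the largest change of the list (5.86, SE 0.23). RAS1, a GTPase of cAMP signalling, fell by 2.86 (SE 0.39). The glucose repressor MIG1 (-0.30) and its kinase SNF1 (0.25) did not pass.

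Of 17 genes of glycolysis 7 fell and none rose, with a median of -0.56, where 22.9% of all rows fell and 33.2% rose. The counts moved with the scaling. With median-of-ratios scaling 10 fell (1781 of all 6339 rows), and with quantile normalization 8 fell and 1 rose (1856 and 1674 of all rows). ENO2, the enolase of glucose growth, had 528 and 466 FPKM at 12 h and 7932 and 7625 FPKM at 6 h (-3.97, SE 0.30, limma adjusted p = 0.000236). HXK2, the main hexokinase on glucose, had 185 and 166 FPKM at 12 h and 1518 and 1358 FPKM at 6 h (-3.03, SE 0.18). CDC19, the main pyruvate kinase, had 416 and 378 FPKM at 12 h and 1785 and 1800 FPKM at 6 h (-2.17, SE 0.23, adjusted p = 0.000645). For these the 12 h libraries were all below the 6 h libraries by a wide margin. TDH2 (-2.37), GPM1, phosphoglycerate mutase (-1.41), and PFK2 (-0.91) and PFK1 (-0.56), the subunits of phosphofructokinase, were the others that fell. GPM1 did not pass without S 12 h replicate 2 (adjusted p = 0.0652), and PFK1 did not pass without any one S library (between 0.0552 and 0.159) or U 6 h library (0.0532 and 0.0538). TDH3 was among the 10 most abundant rows at both times, with 12513 and 10856 FPKM at 12 h and 15757 and 11822 FPKM at 6 h (-0.23, SE 0.28, adjusted p = 0.513). FBA1 (-1.11), TPI1 (-0.64), PGI1 (-0.46) and PGK1 (-0.40) did not pass, nor did GLK1 (3.11), TDH1 (1.13), PYK2 (1.48), ENO1 (0.46) and HXK1 (0.41). These last 5 were higher in S 6 h replicate 1 than in replicate 2, and without replicate 1 GLK1 (4.86, adjusted p = 0.00539), TDH1 (2.34, 0.0268) and PYK2 (2.58, 0.0121) passed, with a single 6 h library left in S. ENO1 and ENO2 are 94.8% identical, TDH2 and TDH3 95.8%, so each split is uncertain, as is GLK1, which overlaps the row YCL042W by 106 bases. The sum of the enolases differed by -1.77 and that of TDH2 and TDH3 by -0.44.

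Of 7 genes of ethanol fermentation 3 fell and 2 rose, where 22.9% and 33.2% of all rows did. PDC1, the main pyruvate decarboxylase, had 1237 and 861 FPKM at 12 h and 6942 and 6339 FPKM at 6 h (-2.68, SE 0.24, limma adjusted p = 0.000372). ADH1, the alcohol dehydrogenase that makes ethanol, had 3036 and 2499 FPKM at 12 h and 7959 and 7515 FPKM at 6 h (-1.49, SE 0.31), which did not pass without S 12 h replicate 2 (adjusted p = 0.0527). ADH4 fell by 0.81. PDC6, a minor pyruvate decarboxylase, rose to 12.2 and 12.6 FPKM at 12 h, against 1.02 and 0.35 FPKM at 6 h (3.02, SE 0.30), and ADH3, the mitochondrial alcohol dehydrogenase, rose by 1.11 (adjusted p = 0.0596 without S 12 h replicate 2). PDC5 (-0.21) and ADH5 (-0.33) did not pass.

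The glycolytic genes are the known targets of Gcr1, and the same time change in U lay below that in S for 16 of 17 of them. This number was 13 without U 6 h replicate 1 and also without S 6 h replicate 2. Their median change was -0.56 in S and -2.27 in U. Over all 6339 rows tested, the change in U lay below that in S in 2530 and above it in 3806. CDC19 had 416 and 378 FPKM in S at 12 h, against 25.9 and 41.2 FPKM in U at 12 h, and 1785 and 1800 FPKM in S at 6 h, against 1279 and 1384 FPKM in U at 6 h. TDH3 had 12513 and 10856 FPKM in S at 12 h, against 1482 and 1774 FPKM in U at 12 h, and at 6 h 15757 and 11822 FPKM in S, against 15494 and 9875 FPKM in U. So for CDC19 and TDH3 the strains overlapped or lay close at 6 h and stood apart at 12 h. The difference of the time changes, S minus U, was 3.13 for CDC19 (SE 0.32, limma adjusted p = 0.0531) and 2.70 for TDH3 (SE 0.39, adjusted p = 0.215). In all, 5 of 6339 rows (0.0789%) passed this test of the difference and no glycolytic gene did. At an unadjusted p under 0.05 there were 12 glycolytic genes of 17 and 51 rows of 6339. On dropping S 6 h replicate 1 these were 13 and 137, and on dropping U 6 h replicate 1 they were 10 and 86. With quantile normalization CDC19 passed (adjusted p = 0.034). It also passed without either U 12 h library (0.0436 and 0.0137), and its adjusted p ran up to 0.345 when another library was left out.

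**Figure D4:**
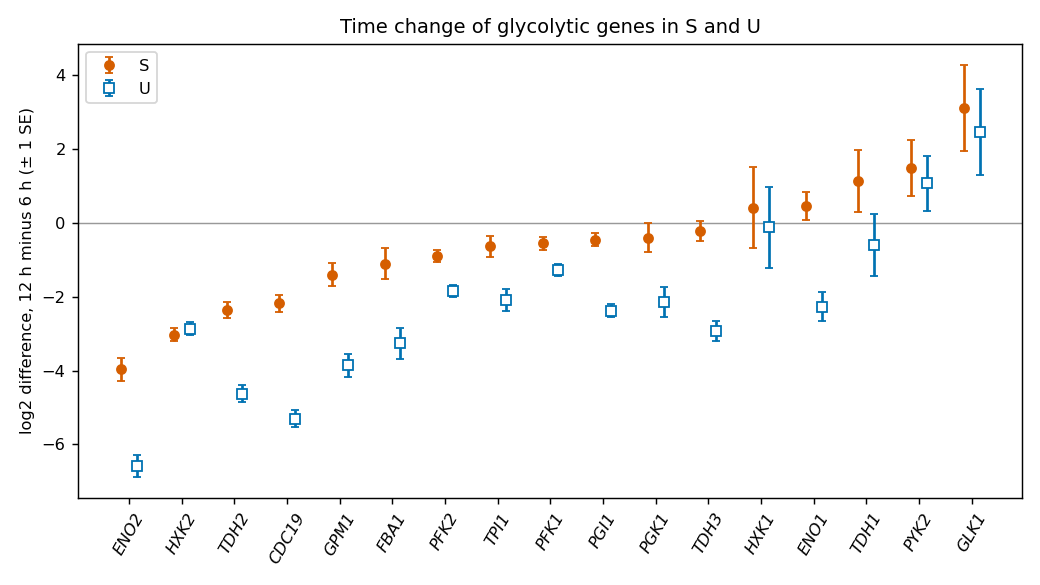
Log2 difference, 12 h minus 6 h, of 17 glycolytic genes in S (filled circles) and U (open squares), with bars of 1 SE from limma, n = 2 libraries a group. The S values lie above the U values in 16 of 17 genes, and the exception is HXK2 (-3.03 in S, -2.87 in U). Over all 6339 rows tested, S lay above U in 2530.

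Many genes known from growth on glucose can be set beside one known from other carbon sources or stress, mostly a paralog of the same step and in a few cases an enzyme of the opposing step, such as PFK1 with FBP1, CDC19 with PCK1 and GPD2 with GUT2. In 14 of 29 such pairs, some of which share a gene, the first fell and the second rose, both past the test. In 24 of 29 the second held a larger share of the pair's summed FPKM in both 12 h libraries than in both 6 h libraries, and in 13 it was under 50% at 6 h and over 50% at 12 h. NQM1, a transaldolase, had 902 and 701 FPKM at 12 h and 9.48 and 6.11 FPKM at 6 h (6.53, SE 0.26), and its paralog TAL1 532 and 579 FPKM at 12 h and 1048 and 895 FPKM at 6 h (-0.80, SE 0.19; adjusted p = 0.0731 without S 12 h replicate 1). NQM1 thus held 62.9% and 54.8% of the pair at 12 h, against 0.90% and 0.68% at 6 h. In the same pathway, the pentose phosphate pathway that yields NADPH, GND2 rose by 5.27 as GND1 fell by 2.25, and TKL2 rose by 4.22 as TKL1 fell by 2.16. SSA3, an Hsp70 chaperone, rose by 5.42 and took 81.5% and 61.2% of its pair with SSA2 at 12 h, against 1.55% and 3.79% at 6 h; SSA2 is 96.4% identical to SSA1, so its own level is uncertain. The reverse held only for asparagine synthetase, where ASN2 fell by 2.12. It held 26.4% and 29.5% of the pair at 12 h, against 54.5% and 37.5% at 6 h. For TDH3 with TDH1, ALD6 with ALD4, CYC7 with CYC1 and GSY1 with GSY2, the shares at 12 h and 6 h overlapped. A pair not on that list, chosen after its values were seen, is ISU1 (2.81) and ISU2 (-1.59), both scaffolds for iron-sulfur clusters; ISU2 did not pass without either S 12 h library (adjusted p = 0.0601 and 0.0674).

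**Figure D5:**
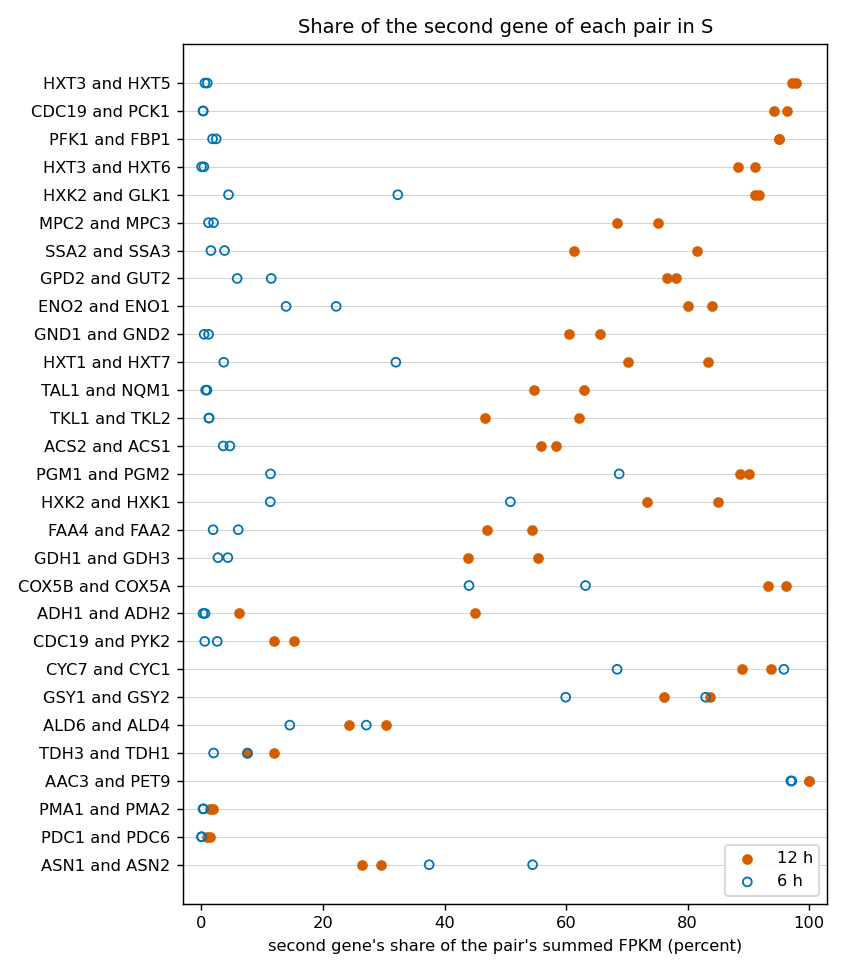
Share of a pair's summed FPKM held by the second gene (percent, horizontal axis) in each S library for 29 pairs, with filled circles for 12 h and open circles for 6 h. In 24 pairs both filled circles lie to the right of both open circles, and for ASN1 and ASN2 they lie to the left.

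Stationary-phase and hydrophilin genes rose in 22 of 28 cases and none fell, with a median of 4.02. HSP12, a small heat shock protein that binds membranes, had 52163 and 36513 FPKM at 12 h and 478 and 251 FPKM at 6 h (6.97, SE 0.43, limma adjusted p = 0.000137). RGI2, known from respiratory growth, had 1521 and 2174 FPKM at 12 h and 0.24 and 1.26 FPKM at 6 h. The list came to 11.6% and 9.03% of the summed FPKM at 12 h and 0.471% and 0.120% at 6 h. SPG3 (0.49) and SNO1 (0.42) were among those that did not pass.

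Heat shock genes and reserve carbohydrates showed their higher values also in S 6 h replicate 1, and the calls depend on that library. Of 27 chaperone genes 4 rose and 3 fell in all libraries together, and 15 rose and 2 fell without S 6 h replicate 1. Without any one of the other 3 S libraries 2 rose. HSP104, the disaggregase, had 1741 and 1314 FPKM at 12 h and 1055 and 30.6 FPKM at 6 h, and HSP82, the inducible Hsp90, 1837 and 1591 FPKM at 12 h and 973 and 21.2 FPKM at 6 h. For both the lone high 6 h value lay close to 12 h, and neither passed (adjusted p = 0.215 and 0.204). HSP26, a small heat shock chaperone, passed with 25148 and 16283 FPKM at 12 h and 651 and 74.4 FPKM at 6 h (6.51, SE 1.03). The chaperones that fell were SSB1 (-3.79, SE 0.25) and SSB2 (-2.36, SE 0.22), the Hsp70s that sit on ribosomes, which are 97.5% identical and whose sum differed by -2.80, and SSE1 (-0.69), whose call was lost without any one S library (adjusted p between 0.0695 and 0.161) or without U 6 h replicate 2 (0.0505). Of 10 trehalose genes 2 rose and 1 fell, and 6 rose and 1 fell without that library. TSL1, a subunit of trehalose synthase, had 257 and 350 FPKM at 12 h and 282 and 4.80 FPKM at 6 h. Glycogen genes rose in 9 of 12 cases, in 12 of 12 without it and in 5 without S 12 h replicate 2, among them GLG2, a glycogenin that primes the polymer (3.28, SE 0.50). In U at 6 h, too, replicate 1 was above replicate 2, by a median of 2.22 in chaperone, 1.35 in trehalose and 0.92 in glycogen genes, against 2.20, 1.89 and 1.32 in S. A replicate block within each time was also fitted, with its time change taken at the level of replicate 1. It called 15 of the 27 chaperone genes higher and 9 lower, with a median of 0.70. These values set 12 h against the replicate 1 level of 6 h and do not average the replicates. With no block the counts were 4 and 3, with a median of 1.72, beside 33.2% and 22.9% of all rows. What set the replicates of 6 h apart was not tested.

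Defence against oxidants rose in 17 of 28 genes and fell in 3 (5 with either other scaling). SOD2, the mitochondrial superoxide dismutase, had 3799 and 3693 FPKM at 12 h and 643 and 267 FPKM at 6 h (3.17, SE 0.48, limma adjusted p = 0.0024). PRX1, the mitochondrial peroxiredoxin, rose by 3.72, and the catalase of the peroxisome, CTA1, by 3.56. CTT1, the cytosolic catalase, rose by 3.76, though not without S 6 h replicate 2 (adjusted p = 0.0773) or either S 12 h library (0.0927 and 0.0685). TRR1, cytosolic thioredoxin reductase, fell by 1.61. Of 30 genes for peroxisomes and the oxidation of fatty acids, 25 rose and 1 fell. The fall was not called without S 6 h replicate 1 or S 12 h replicate 1. POT1, the thiolase that ends each round of oxidation, had 220.3 and 203 FPKM at 12 h and 6.91 and 9.57 FPKM at 6 h (4.54, SE 0.19). Genes of autophagy and vacuolar proteases rose in 25 of 33 cases and 1 fell, with a median of 1.77. That fall was not called with no filter on low values, with no trend or in S alone. It was also lost without S 6 h replicate 1 or any single 12 h library of S or U. ATG8, the ubiquitin-like protein of the autophagosome, had 841 and 718 FPKM at 12 h and 153 and 60.9 FPKM at 6 h (2.99, SE 0.48), and ATG39, a receptor for selective autophagy of the nuclear envelope, rose by 5.11. Of 34 proteasome genes 2 rose and none fell (5 fell with median-of-ratios scaling). Those were UBI4, the polyubiquitin gene (2.75; adjusted p = 0.0552 without S 12 h replicate 1), and RPN4, the activator of proteasome genes (1.34), neither of which is a subunit.

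Of 12 genes of glycerol metabolism 5 rose and 4 fell, where 33.2% and 22.9% of all rows did. STL1, the glycerol importer, had 602 and 599 FPKM at 12 h and 7.00 and 7.60 FPKM at 6 h (6.18, SE 0.15, limma adjusted p = 9.85e-06). GUT1, glycerol kinase, rose by 3.45 and GUT2, the mitochondrial glycerol-3-phosphate dehydrogenase, by 4.35. GPP1, the phosphatase that makes glycerol, had 113 and 58.5 FPKM at 12 h and 1608 and 2350 FPKM at 6 h (-4.56, SE 0.35), and the glycerol channel FPS1 fell by 0.75.

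Ribosomal protein genes fell almost without exception. Of 134 cytosolic ribosomal protein genes tested 133 fell, with a median of -3.18 and a range of -5.29 to 0.17, where 22.9% of all rows fell. Large-subunit genes (73, median -3.23), small-subunit genes (56, median -3.15) and stalk genes (5, median -2.96) had similar medians. RPL3 had 422 and 509 FPKM at 12 h and 3462 and 4672 FPKM at 6 h (-3.11, SE 0.26, limma adjusted p = 0.000317). RPL15B, the gene that did not pass, had 137 and 144 FPKM at 12 h and 134 and 116 FPKM at 6 h (0.17, SE 0.19, adjusted p = 0.467), and its sign turns with median-of-ratios scaling. It is 93.2% identical to RPL15A, and the sum of both differed by -3.44, so its own level is uncertain. The extremes of the list include paralogs of 1 protein. RPL9A had 66.0 and 78.6 FPKM at 12 h and 2530 and 3215 FPKM at 6 h (-5.29, SE 0.19), and RPL9B 259 and 380.4 FPKM at 12 h and 661 and 751 FPKM at 6 h (-1.16, SE 0.29; not past the test without S 6 h replicate 2, adjusted p = 0.0656, or S 12 h replicate 1, 0.0908). RPL9A was thus the more abundant paralog in both 6 h libraries and the less abundant in both 12 h libraries. The paralogs are 93.8% identical over the coding sequence, and their sum differed by -3.20. The list's share of the summed FPKM was 3.61% and 4.52% at 12 h and 30.5% and 34.6% at 6 h.

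Genes that make ribosomes fell too. Of 82 ribosome biogenesis genes 79 fell (50 without S 12 h replicate 2) and none rose (median -1.99), and SFP1, an activator of these genes, differed by 0.32 and did not pass. NOP1, fibrillarin, had 86.6 and 62.7 FPKM at 12 h and 617 and 1113 FPKM at 6 h (-3.47, SE 0.35, limma adjusted p = 0.000541). For this list S 6 h replicate 1 lay below replicate 2 throughout, that is nearer to 12 h, and without it 81 of 82 fell. Of 28 genes of RNA polymerases I and III 17 fell, led by RPA49 (-3.14) and RPA43 (-2.86) of polymerase I, and 1 rose, MAF1 (0.86, SE 0.16), the repressor of polymerase III. RNA polymerase II fell in 9 of 11 genes, with a median of -0.84 against -1.09 for polymerases I and III. All 21 cytosolic tRNA synthetases fell (median -1.91), as did 35 of 37 translation factors (median -1.57). YEF3, elongation factor 3, had 177 and 109 FPKM at 12 h and 1512 and 2499 FPKM at 6 h (-3.80, SE 0.38). The 1 that rose was CAM1 (0.51), a gamma subunit of elongation factor 1B, whose call was lost under both scalings (adjusted p = 0.112 and 0.0653), in S alone (0.0959), and without any one library other than S 6 h replicate 1 (0.0514 to 0.146). Its paralog TEF4, with the snoRNA gene SNR38 in its intron, fell by 3.39 (SE 0.19).

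Of 56 amino acid genes 35 fell and 4 rose (median -1.05). HIS1, the first enzyme of histidine synthesis, had 74.8 and 59.6 FPKM at 12 h and 614 and 1302 FPKM at 6 h (-3.72, SE 0.47, limma adjusted p = 0.00122). BAT1, the mitochondrial branched-chain aminotransferase, fell by 3.11 and its cytosolic paralog BAT2 rose by 1.59. GCN4, the activator of amino acid genes, also rose (1.06). Purine and one-carbon genes fell in 17 of 22 cases and none rose (median -2.11). IMD2, an IMP dehydrogenase at the branch to guanine nucleotides, had 2.29 and 1.00 FPKM at 12 h and 97.9 and 131 FPKM at 6 h (-5.48, SE 0.35). SAM1, an S-adenosylmethionine synthetase, had 3.96 and 7.36 FPKM at 12 h and 356 and 552 FPKM at 6 h (-6.11, SE 0.38), and its paralog SAM2 fell by 2.39. Both belong to sulfate assimilation and methionine, of whose 23 genes 8 rose (5 on dropping S 12 h replicate 2) and 6 fell, with a median of 0.09. Of 11 pyrimidine genes 4 rose and 5 fell, but 2 rose and 3 fell on dropping either 12 h library of S or either 12 h library of U, and 2 rose on dropping S 6 h replicate 2. For the methionine and pyrimidine lists, the shares to compare over all rows are 33.2% higher and 22.9% lower. URA10, the minor orotate phosphoribosyltransferase, rose by 4.13 (SE 0.29), while its paralog URA5 fell by 1.38 (SE 0.17). Sterol synthesis fell in 10 of 25 genes (6 without S 12 h replicate 1) and rose in 2, with ERG6 the largest change (-2.34). Fatty acid and phospholipid genes split, ELO3 (-3.25) and ELO2 (-2.98), fatty acid elongases, falling and OPI3 (3.24) and INO1 (3.57), of phosphatidylcholine and inositol synthesis, rising.

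Of 21 genes of nitrogen use 13 rose and none fell. PUT4, the proline permease, had 239 and 724 FPKM at 12 h and 1.27 and 1.02 FPKM at 6 h (7.61, SE 0.59, limma adjusted p = 0.000241). PUT1, proline oxidase, rose by 5.42, and GDH2, the glutamate dehydrogenase that releases ammonium, by 4.10. GAP1, the general amino acid permease, rose by 3.01. Genes for galactose, maltose and sucrose rose in 11 of 17 cases at low levels, such as GAL3, the galactose sensor, with 43.7 and 82.2 FPKM at 12 h and 5.18 and 3.39 FPKM at 6 h (3.55, SE 0.38). SUC2, invertase, did not pass (0.65).

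Of 29 genes of mitosis and cell separation 23 fell (15 without S 12 h replicate 1) and none rose (median -0.82). CLB1 (-2.11) and CLB2 (-1.74), mitotic cyclins, and CTS1, the chitinase that parts mother and daughter (-1.74), were among them. Histones fell in 7 of 10 genes: HTB2 had 224 and 221 FPKM at 12 h and 2671 and 2394 FPKM at 6 h (-3.50, SE 0.17, limma adjusted p = 6.66e-05), and HTA2 fell by 3.03, while the other H2A and H2B genes, HTA1 (-0.47) and HTB1 (-0.63), did not pass. HTA1 and HTA2 are 93.7% and HTB1 and HTB2 87.9% identical, and the sums differed by -1.13 and -1.24. DNA replication genes fell in 10 of 33 cases (4 without S 12 h replicate 1) and rose in 2. Over all rows 22.9% fell and 33.2% rose. RNR1, ribonucleotide reductase, fell by 2.41 and POL30, the sliding clamp, fell by 2.05. Of 18 genes of the G1 cyclins and Start 5 fell (2 on dropping S 12 h replicate 1, 3 on dropping S 12 h replicate 2) and 2 rose (4 on dropping S 6 h replicate 1), against 22.9% and 33.2% of all rows. CLN2, a G1 cyclin, fell by 1.55. Meiosis and sporulation genes rose in 17 of 27 cases (9 without S 12 h replicate 2 or with quantile normalization) and 1 fell, CLB1, with a median of 0.93 and at low levels, in a strain that is haploid. REC8, the meiotic cohesin, had 10.1 and 10.5 FPKM at 12 h and 0.71 and 1.32 FPKM at 6 h (2.50, SE 0.36).

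Cell wall genes moved both ways. Of 26 cell wall mannoprotein genes 12 rose and 9 fell, where 33.2% and 22.9% of all rows did. CCW12, the most abundant row at 6 h, had 10248 and 7680 FPKM at 12 h and 30315 and 34714 FPKM at 6 h (-1.87, SE 0.21, limma adjusted p = 0.000827; 0.0832 with no filter on low values). PIR3, a covalently bound wall protein, had 750.3 and 617 FPKM at 12 h and 9.45 and 8.90 FPKM at 6 h (6.07, SE 0.26). TIR1, a mannoprotein known from cold and low oxygen, fell by 3.81, and the glucan transferase GAS1 fell by 2.58. PMA1, the proton pump of the plasma membrane, fell by 1.04 (SE 0.20) and PMA2 rose by 1.37 (SE 0.23), at 1.93% and 1.43% of the pair at 12 h. The metallothionein CRS5 (4.00, SE 0.29) and the copper transporter CTR1 (3.06, SE 0.66; adjusted p = 0.0519 without S 12 h replicate 1) rose.

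GCR1 itself had 104 and 89.0 FPKM in S at 12 h and 143 and 58.9 FPKM in S at 6 h. The groups overlap, and the log2 difference of 0.07 (SE 0.42, limma adjusted p = 0.904) turns to -0.15 with median-of-ratios scaling. GCR2, its partner, differed by -0.09 (SE 0.14) and REB1 by -0.40, neither past the test. RAP1, the factor that brings Gcr1 to many promoters, fell by 0.88 (SE 0.21, limma adjusted p = 0.0122), though not without S 6 h replicate 2 (0.0545) or either S 12 h library (0.0671 and 0.0564). TYE7, an activator of glycolytic genes, had 122 and 91.4 FPKM at 12 h and 293 and 272 FPKM at 6 h (-1.41, SE 0.20). GPI2, which lies beside GCR1 on chromosome XVI, had 99.8 and 92.1 FPKM at 12 h and 50.0 and 42.8 FPKM at 6 h (1.04, SE 0.17, limma adjusted p = 0.00293). In U the same change was -0.01, and the difference of 1.05 did not pass (unadjusted p = 0.00365, adjusted p = 1).

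Short promoter motifs were counted in 5756 windows of 300 bases, from 450 to 151 bases before the start codon in assembly R64 (sacCer3), on both strands. Promoters of 2 genes the results turn on are shown, SIP18 for the largest rise and CDC19 for the glycolytic gene nearest to a difference between the strains. The SIP18 window is chrXIII:610566-610865, plus strand, before a gene at chrXIII:611016-611255, and capitals mark AGGGG or its complement CCCCT, the stress element bound by Msn2 and Msn4. The CDC19 window is chrI:71336-71635, plus strand, before a gene at chrI:71786-73288, and capitals mark CTTCC or its complement GGAAG, the core bound by Gcr1. No capital stretch overlaps another.
SIP18: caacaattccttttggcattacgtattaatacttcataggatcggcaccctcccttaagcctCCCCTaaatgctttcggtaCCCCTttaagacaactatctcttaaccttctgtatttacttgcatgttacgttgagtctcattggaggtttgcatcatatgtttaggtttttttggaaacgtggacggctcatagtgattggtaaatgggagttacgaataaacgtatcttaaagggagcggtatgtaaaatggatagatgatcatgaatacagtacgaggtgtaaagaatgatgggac
CDC19: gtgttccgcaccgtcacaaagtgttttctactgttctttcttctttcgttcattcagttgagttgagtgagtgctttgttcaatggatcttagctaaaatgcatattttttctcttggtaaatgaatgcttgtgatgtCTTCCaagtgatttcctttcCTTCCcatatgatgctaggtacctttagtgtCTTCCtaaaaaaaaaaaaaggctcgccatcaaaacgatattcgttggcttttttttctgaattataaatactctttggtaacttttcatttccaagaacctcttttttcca
SIP18 holds 2 matches of the stress element, and CDC19 holds 3 of CTTCC and none of ACCCA, the core of the Rap1 site. The other windows picked by rule and not shown were those of SFC1, PCK1 and DBP2. SFC1 holds 1 stress element and none of the Cat8 element described below. PCK1 holds neither, and DBP2 holds neither GATGAG nor AAAATTTT. These are matches of letters in a window and not binding sites.

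The stress element AGGGG was in 48.0% of 229 windows of genes called at least 8-fold higher at 12 h. It was in 17.1% of 146 windows of genes called at least 8-fold lower. Of windows of all genes that rose 28.3% held it, of those that fell 18.0%, and of all windows 23.5%. Among the lists it was in 60.7% of 28 windows of stationary-phase genes and in 47.1% of 17 windows of glycolysis. CCAAT, the core of the Hap complex site, was in 10 of 10 windows of gluconeogenesis, in 88.2% of ATP synthase and 70.8% of respiratory chain windows, and in 45.4% of all. The carbon source response element of Cat8, taken as CGG and GGA with 6 bases between them, was in 4 of 10 gluconeogenesis windows and 4.5% of all, and was absent from this window of PCK1. AAAATTTT, the core of the RRPE element of ribosome biogenesis genes, was in 25.6% of their windows, in 13.5% of windows of genes that fell, in 4.0% of those that rose, and in 6.9% of all. GATGAG, the core of the PAC element, was in 29.3% of ribosome biogenesis windows, in 3 of 10 gluconeogenesis windows and in 16.8% of all. ACCCA was in 59.0% of ribosomal protein windows and 31.2% of all, and CTTCC in 70.6% of glycolysis windows and 47.4% of all. No test was made of these shares.

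Position on the chromosome also separated the rows. Of 173 protein-coding genes within 20 kb of a chromosome end 49.1% rose and 8.7% fell, with a median of 0.88, against 33.5% and 24.1% of 5577 genes farther in, with a median of 0.20. Protein-coding rows known only by a systematic name rose in 37.8% of 579 cases and fell in 11.4%.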

How the data were processed

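mRNA was sequenced from 8 libraries, 2 of each strain and time. The values are FPKM per gene, normalized by the authors for transcript length and library size, per the file headers. The submitters' processing notes name TopHat2 2.1.1, Cufflinks, FastQC 0.10.1, bcl2fastq 1.8.2 and the build sacCer3, without roles or versions beyond these. The sources do not give whether counting used strand.

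Groups came from the labels and columns from their names. The R64 annotation supplied positions for 6048 of 7126 rows through their locus tag and for 114 through their symbol. Rows averaging 1 FPKM or more across all 8 libraries were tested as log2(FPKM + 1) with limma 3.58.1 in R 4.3.3, in 1 fit of 4 groups with a mean-variance trend (4 residual and 2.33 prior degrees of freedom). P-values were adjusted by Benjamini-Hochberg over all 6339 rows and called under 0.05. The fit was tested on simulated data. Tables, sequence windows and plots used Python 3.11.15, pandas 2.3.3, Biopython 1.88 and matplotlib 3.10.9. With values only in FPKM, no counting interval can be given.

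The gene lists, pairs and genes described were chosen with earlier results of these data known. Genes were named by rule: the 15 highest and 15 lowest called log2 differences of 1 or more, where groups did not overlap and the higher one averaged 10 FPKM or more, the 10 most abundant rows at each time, the rows called for a difference between S and U, up to 8 members of each list, all members of the glycolysis, fermentation, hexose transporter, activator and GCR1 lists, and the pairs. Genes beyond it were chosen after their values were seen. ARG5,6, DUR1,2 and ADE5,7 were not used here, and 1 further result is not reported here.

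Alternatives tried were a pseudocount of 0.1, no filter or a filter of 10 FPKM, median-of-ratios and quantile scaling, replicate blocks, no trend, leaving out rows listed at 0, a fit to S alone, a minimum fold change of 2, and leaving out each library.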

Additional observations from a re-analysis of the deposited data

Results flagged for a closer look

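The time change differed between S and U, by limma's test of that difference, in 5 rows. All 5 were listed at 0 in both libraries of at least 1 group, so no fold is given, and an exact 0 in a table of FPKM can be a failed estimate. With rows listed at 0 in any library left out, none of the rows tested passed (43 at an unadjusted p under 0.05, limma).

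SNR18, a snoRNA gene, was listed at 0 in all 4 S libraries and both U 12 h libraries and had 4386 and 4361 FPKM in U at 6 h (adjusted p = 1.45e-05). YCR038W-A had 33.7 and 33.8 FPKM in S at 12 h and was listed at 0 in S at 6 h, while in U it was listed at 0 at 12 h and had 33.7 and 33.8 FPKM at 6 h (adjusted p = 5.39e-05). CPP3 had 22.8 and 22.7 FPKM in S at 12 h and 10.1 and 8.80 FPKM in S at 6 h, and 29.4 and 30.6 FPKM in U at 12 h with 0 listed in U at 6 h (adjusted p = 0.00506). YMR272W-A had 125 and 125 FPKM in S at 12 h and was listed at 0 in S at 6 h, and had 163 and 308 FPKM in U at 12 h and 124 and 124 FPKM in U at 6 h (adjusted p = 0.00506). PLS1 was listed at 0 in S at 12 h and had 58.8 and 50.4 FPKM in S at 6 h, and was listed at 0 in all 4 U libraries (adjusted p = 0.0112).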

How the results depend on the processing

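Depth is unknown and each group has 2 libraries, so small changes cannot be judged. The count of rows changed in S was 3557, between 3354 and 4366 under other pseudocounts, filters, scalings, blocks and trends, 2763 in S alone (1576 higher, 1187 lower), 901 against a minimum fold change of 2, and 2317 to 3665 with 1 library left out (1317 to 2303 higher). Scaling moved the balance, to 1696 higher and 1781 lower with median-of-ratios scaling and to 1674 and 1856 with quantile normalization. Rows differing between S and U numbered 5, 9 with no filter on low values, 0 with rows listed at 0 left out (limma, 43 at an unadjusted p under 0.05) and 2 to 13 with 1 library left out. Of 181 named genes called, none reversed, and 12 lost the call under a scaling, filter, pseudocount, block or trend. In S alone 9 lost it, and against a minimum fold change of 2 there were 57. More than 12 lost it without S 6 h replicate 2 or either S 12 h library, each of which leaves 1 library in its group. Same-numbered replicates of S and U deviated together at 6 h (r across genes 0.64) and 12 h (0.38), but those of S at 6 h and 12 h did not (0.01), so numbers do not pair the times. A replicate block gave 3814 calls and a block within each time 4366. The latter takes the time change at the replicate 1 level of each time, so its calls and signs in S do not average the replicates. The block within each time called 15 of 27 chaperone genes higher and 9 lower, against 4 and 3 with no block, and put 221 rows at an unadjusted p under 0.05 for the S against U difference, against 51. Among genes that did not pass, GCR1 turned to -0.15 (median-of-ratios), -0.11 (quantile) and -0.37 (block within time), HXT7 to -0.11, -0.24 and -0.62, RTG3 to -0.027 and -0.040 (both scalings), RPL15B to -0.040 (median-of-ratios), GAL2 to -0.32, HXT12 to -0.052, HXT17 to -0.15 and PGK1 to 0.016 (quantile), and ADH5 to 0.15, HTA1 to 0.053 and HXK1 to -0.22 (block within time). With 1 library left out they ran from -0.73 to 0.067 for ADH5, -1.18 to 0.31 for COX5B, -0.57 to 0.70 for GCR1, -1.18 to 1.99 for HXK1, -1.48 to 1.68 for HXT7, -0.074 to 0.44 for RTG3 and -0.083 to 2.34 for TDH1. The cause of these reversals was not tested.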
